A study of Mus musculus with 16 samples.

Results

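Gene expression in the mouse soleus was compared between day 7 and day 3 of a gradual fall in oxygen. The soleus is a postural hindlimb muscle rich in slow, oxidative fibres. The comparison sets 3 day 7 RNA samples (1, 2 and 4) against 3 day 3 RNA samples (1, 2 and 4), which makes 6 of the 14 RNA samples and 6 of the 16 arrays analysed. They were chosen by their titles and because all 6 lie on 1 array slide, so no slide difference enters. The mice were male. Both groups were under hypoxia: oxygen was gradually brought down to 10% during week 1 and held there in week 2, so day 3 falls within the descent and day 7 at its end. The rest of the study is day 0, before hypoxia (4 RNA samples), and day 14 (4 RNA samples). The oxygen level at day 3 is not given in the sources used here. No genetic change or other agent is named, and strain, age and the time of day of sampling are not given in the sources used here. The design names 4 samples a day, and sample 3 of either day was not analysed here. Whether the RNA samples are from different mice is not stated. The p-values below therefore measure only the spread between the RNA samples of the study, which may be technical.

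Muscle answers a fall in oxygen in part through hypoxia-inducible factors, whose alpha subunits are destroyed when oxygen is plentiful and which otherwise switch on genes of glycolysis, blood vessel growth and mitochondrial turnover. Muscle fibres also hold a circadian clock. In it CLOCK and BMAL1 (encoded by Arntl) drive the Per, Cry, Nr1d and Dbp genes through E-box sequences, and the products of several of these genes repress the drivers or act on further genes through D-box and RORE sequences. Between the fibres lie fibroblasts, vessels and resident macrophages, which carry scavenger receptors and C-type lectins, clear debris and recruit other immune cells.

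Levels are given on the log2 scale relative to the 75th percentile of the intensities of each array, so a level of 0 is that percentile, and negative levels lie below it. Each difference is day 7 minus day 3 in log2 units, from 3 samples a day, and is given with its standard error (SE). A feature, which is a named gene or a probe without a gene name, is called where its limma adjusted p (2-sided, Benjamini-Hochberg over all features) is under 0.05. The spread behind the SE and the p-value was estimated over all 16 arrays of the study. An SE can thus differ from that of the 6 arrays alone. It was 0.32 against 0.15 for the gene Dbp, and 0.33 against 0.44 for C1qa. Of 22145 features, 150 were called, or 0.677%. Of these, 99 were higher at day 7 (0.447% of features) and 51 were lower (0.23%). Both shares are the background for every count of called list members below. Among the called features 121 had a gene symbol, 77 higher and 44 lower. A change of at least 2-fold was seen in 26 features that rose and 28 that fell. The median difference over all features was 0.05. Of the calls 66.0% were higher; with arrays scaled to the probes detected on all of them, which moves that median to -0.05, 177 features were called, of which 75 were higher (42.4%), and 126 of the 150 were among them.

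In all 150 called features the 3 day 7 values lay wholly above or wholly below the 3 day 3 values, which was also so for 17.2% of all features (11.2% higher, 6.06% lower). Few calls held under every choice of samples. Fitted on the 6 arrays alone, limma called 2 features, or 0.00903%, namely Dbp and Mmp3, while 2222 had an unadjusted p under 0.05. Mmp3 was well above background on the 3 day 3 arrays alone, so it passed the filter on dim probes only through the day where it is high. Its calls in this and the following fits are therefore no separate support. Leaving out 1 RNA sample at a time gave 28 calls without day 3 sample 1, 231 without day 3 sample 2 and 43 without day 3 sample 4. It gave 33 without day 7 sample 1, 63 without day 7 sample 2 and 268 without day 7 sample 4. Of the 150 features, 9 were called in none of these 6 fits, 33 in 1, 55 in 2, 18 in 3, 9 in 4, 3 in 5 and 23 in all 6. The 23 features called in each of these 6 fits and under 5 other scalings include Dbp, Per3, Tef, Pdp1, Gpam, Ankrd37, Cirbp, Sox9, Hspa1a, Ccl8 and Mmp3.

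**Figure D1:**
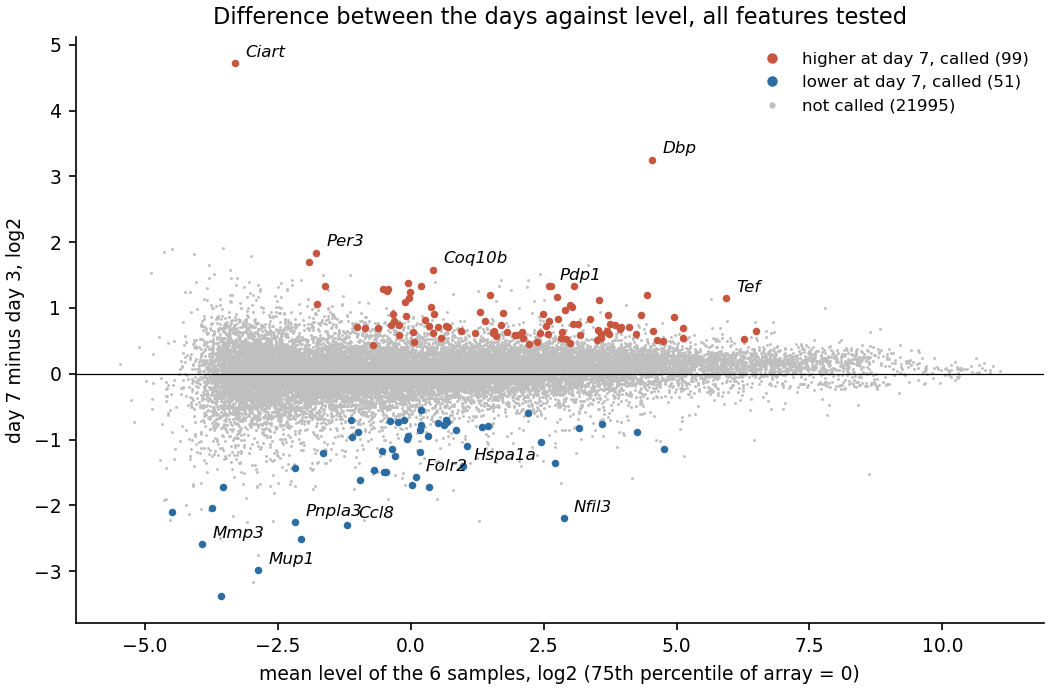
Difference between day 7 and day 3 (log2, vertical axis) against the mean level of the 6 samples (log2, horizontal axis), 1 point per feature. The 99 features called higher are red and the 51 called lower are blue; Ciart and Dbp have the largest rises among the named genes, and the named genes that fell most, Mup1 and Mmp3, lie at low levels.

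On these 6 arrays 48.3 to 55.3% of spots were well above background, no spot was saturated, and correlations between arrays across features, which are not independent replicates, were 0.978 to 0.992. The 4 lowest, 0.978 to 0.981, all involved day 3 sample 4, and the next lowest, at 0.984, was between day 3 sample 2 and day 7 sample 2. The muscle markers were high in every sample: skeletal actin Acta1 between 10.72 and 10.94, slow myosin Myh7 between 10.22 and 10.62, and slow troponin Tnnt1 between 10.19 and 10.38. Of markers of other tissues, the epithelial keratin Krt5 was above background on 1 day 3 and 2 day 7 arrays, and the adipocyte hormone gene Lep on 2 and 1. Day 3 sample 4 stood apart in the macrophage markers, with a mean level over 22 genes of 2.09 against 0.32 and 0.64 in the other day 3 samples. It also stood apart in the fatty acid oxidation genes, at 4.33 over 34 genes against 5.04 and 5.21. Day 7 sample 2 stood apart in the fast myosin Myh4, at 4.31 against 9.44 and 9.83. These differences are given beside the results they touch.

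The clock genes held the largest rises. Dbp, a clock-driven transcription factor that binds D-boxes, read 2.97, 2.88 and 2.87 at day 3 and 6.16, 6.35 and 5.97 at day 7. All day 7 values were above all day 3 values, and Dbp rose by 3.26 ± 0.32, a 9.55-fold change (adjusted p = 0.00146). Its partner Tef read 5.44, 5.57 and 5.04 at day 3 and 6.48, 6.79 and 6.26 at day 7 and rose by 1.16 ± 0.15 (adjusted p = 0.00435). The period gene Per3, whose product joins the repressor complex of the clock, read -2.76, -2.41 and -2.94 at day 3 and -1.0, -0.83 and -0.74 at day 7. Every day 3 sample was lower than every day 7 sample, and Per3 rose by 1.84 ± 0.26 (adjusted p = 0.00676). Nr1d2, which encodes the repressor REV-ERB beta, read 0.93, 0.95 and 0.59 at day 3 and 1.71, 1.97 and 1.62 at day 7 and rose by 0.94 ± 0.16 (adjusted p = 0.0222). Ciart, a repressor of the CLOCK and BMAL1 pair, was not well above background on any day 3 array and was well above it on all 3 day 7 arrays. Its levels were -6.14, -5.43 and -5.41 at day 3 and -1.77, 0.57 and -1.63 at day 7, and it was at least 6.10-fold higher at day 7 when the day 3 level of each array is set no lower than its dimmest probe well above background (adjusted p = 0.0268). Day 7 sample 2 was its highest, and without it the bound was 3.60-fold and Ciart was not called (adjusted p = 0.0955 by limma). It was called in 2 of the 6 fits that left out a sample.

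Of the 11 clock output genes, 5 rose and none fell, against 0.447% of all features called higher. All 11 differences were positive, with a median of 1.10 beside 0.05 for all features. In 9 all day 7 values lay above all day 3 values, beside 11.2% of all features. Leaving out 1 sample at a time left 3 to 5 of them called. The transcripts of these genes rise and fall over each day, and the hour at which the muscles were taken is not given in the sources used here, so its part in these differences was not tested. The other 6 did not pass. Nr1d1, which encodes REV-ERB alpha, read 1.56, 1.62 and 2.10 at day 3 and 3.07, 2.15 and 3.37 at day 7, with no overlap (difference 1.10 ± 0.29, adjusted p = 0.0969). Bhlhe41, Hlf and Bhlhe40 differed by 0.99 ± 0.30, 0.70 ± 0.22 and 0.76 ± 0.24, with adjusted p from 0.151 to 0.161. Per2 and Per1 overlapped between the days. Per2 was well above background on 1 of 3 day 3 arrays and read -2.65, -4.16 and -5.49 at day 3 and -3.45, -1.61 and -2.89 at day 7. Per1 read 3.22, 2.54 and 3.46 at day 3 and 2.47, 5.17 and 3.74 at day 7, so its highest value was in day 7 sample 2 and its lowest also at day 7.

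A second list, of clock drivers, their activators and repressors that peak at other hours than the output genes, was mixed. Nfil3, a repressor that competes with Dbp and Tef for D-boxes, read 4.43, 4.15 and 3.34 at day 3 and 1.68, 2.32 and 1.32 at day 7. Every day 7 value was below every day 3 value, and Nfil3 fell by 2.20 ± 0.33, a 4.59-fold change (adjusted p = 0.00966). Cry2, a cryptochrome repressor, read 3.09, 3.0 and 2.76 at day 3 and 3.75, 4.17 and 3.45 at day 7 and rose by 0.84 ± 0.17 (adjusted p = 0.0447). Arntl did not pass, with 2.15, 2.44 and 2.29 at day 3 and 1.68, 0.74 and 1.60 at day 7 and a difference of -0.95 ± 0.29 (adjusted p = 0.144). Clock and Rora, which encode a driver and an activator of Arntl, overlapped between the days and differed by -0.19 ± 0.17 and -0.03 ± 0.13. Of 6 measured members 1 rose and 1 fell, beside 0.447% of all features called higher and 0.23% called lower. The list had a median difference of -0.11.

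**Figure D2:**
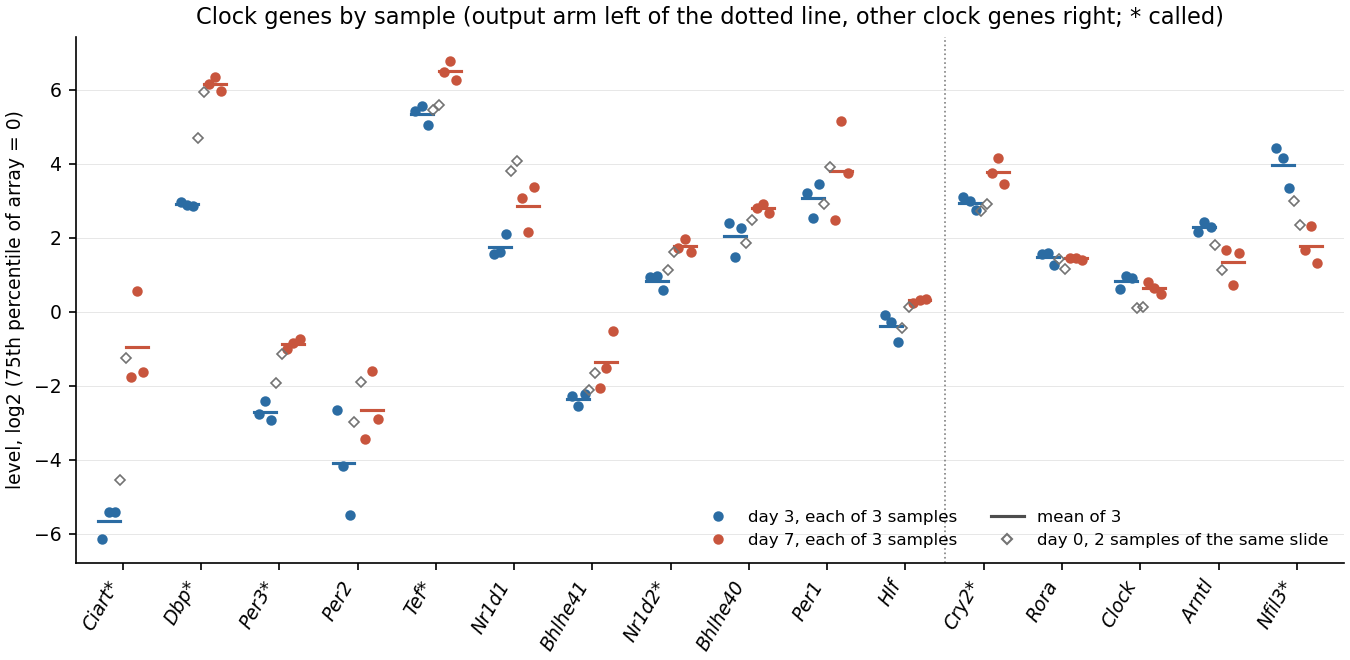
Levels of 11 clock output genes and 5 other clock genes (log2, vertical axis) in each of 3 day 3 samples (blue) and 3 day 7 samples (red), with the mean of each day as a line; open diamonds are the 2 day 0 samples of the same slide, and stars mark called genes. All day 7 points lie above all day 3 points for Dbp, Tef, Per3, Nr1d2 and Ciart, and below them for Nfil3.

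The proximal promoters of 4 of the called clock genes are shown, namely those that hold a match to a motif searched. Clock factors are known to act through E-boxes, D-boxes and RORE sequences. Each is the stretch of 250 bases before the transcription start, on the strand of the gene, from RefSeq (GRCm38.p6), with motif matches in capitals. The motifs searched on both strands were the E-box CACGTG, the D-box TTATGTAA, TTATGCAA, TTACGTAA or TTACGCAA, and the RORE core TAGGTCA. Ciart lies on the minus strand at chr3:95882229-95882478 and holds 3 E-boxes, which begin 116, 58 and 44 bases before the start. Per3 (minus strand, chr4:151044666-151044915) holds 2 D-boxes, 205 and 158 bases before the start. Tef (plus strand, chr15:81802423-81802672) holds 1 E-box, 127 bases before the start of the first of its 2 listed promoters. Nfil3 (minus strand, chr13:52981040-52981289) holds 1 RORE core, 12 bases before the start, read on the opposite strand.
Ciart: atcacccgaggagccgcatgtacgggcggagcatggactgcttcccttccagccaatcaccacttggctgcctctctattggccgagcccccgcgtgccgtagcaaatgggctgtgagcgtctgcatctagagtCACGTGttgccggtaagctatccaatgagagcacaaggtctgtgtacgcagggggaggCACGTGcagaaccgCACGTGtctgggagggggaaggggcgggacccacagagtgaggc
Per3: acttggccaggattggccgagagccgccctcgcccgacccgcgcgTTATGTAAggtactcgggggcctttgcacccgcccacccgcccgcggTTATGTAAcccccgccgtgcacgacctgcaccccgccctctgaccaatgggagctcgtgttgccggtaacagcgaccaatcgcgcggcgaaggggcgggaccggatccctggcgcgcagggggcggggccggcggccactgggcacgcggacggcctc
Tef: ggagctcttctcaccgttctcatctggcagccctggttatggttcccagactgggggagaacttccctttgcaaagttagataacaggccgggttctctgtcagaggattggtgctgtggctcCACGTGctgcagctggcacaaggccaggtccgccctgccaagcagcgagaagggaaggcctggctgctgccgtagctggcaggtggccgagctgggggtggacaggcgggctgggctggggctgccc
Nfil3: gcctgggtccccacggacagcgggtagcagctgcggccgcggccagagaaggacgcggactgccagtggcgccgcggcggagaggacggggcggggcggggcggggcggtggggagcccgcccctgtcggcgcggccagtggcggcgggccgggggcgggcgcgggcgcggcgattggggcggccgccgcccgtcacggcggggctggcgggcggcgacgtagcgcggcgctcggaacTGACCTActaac
Over the windows that run from 250 bases before to 50 after the start, 5 of 11 windows of the clock output genes held an E-box (45.5%, from 9 of the 11 genes), beside 7.15% of 32851 windows of all genes. A D-box was in 2 of the 11 windows (18.2%), beside 1.94% of all. Among the called genes that rose, 15 of 88 windows held an E-box (17.0%), and among those that fell, 4 of 33 (12.1%). The other called clock genes, Dbp, Nr1d2 and Cry2, had no match in this window, which says only that these letters are not there. A match is a description of sequence, not a measured binding site.

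Genes of resident macrophages were the largest group among the falls named here. Of 17 measured lectin, scavenger receptor and chemokine genes of these cells, 6 fell and none rose, beside 0.23% of all features called lower. The median difference was -1.15, and in 14 genes every day 7 value lay below every day 3 value, beside 6.06% of all features. Ccl8, a chemokine of resident macrophages, read -0.62, -0.29 and 0.78 at day 3 and -2.75, -1.89 and -2.37 at day 7 and fell by 2.29 ± 0.31, a 4.90-fold change (adjusted p = 0.00568). It was highest in day 3 sample 4, but the other day 3 samples also lay above all day 7 samples. Cd209f, a C-type lectin, read 0.41, 0.36 and 0.06 at day 3 and -1.01, -1.35 and -1.28 at day 7 and fell by 1.49 ± 0.21 (adjusted p = 0.00738). Here day 3 sample 4 was the lowest of its day and still above all day 7 samples. The related lectin gene Cd209d read 0.73, 0.41 and 0.68 at day 3 and -0.38, -0.31 and -0.07 at day 7 and fell by 0.86 ± 0.14 (adjusted p = 0.0195).

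Clec10a, a lectin that binds galactose-type sugars, read 0.35, -0.11 and 0.43 at day 3 and -0.88, -0.73 and -1.13 at day 7 and fell by 1.14 ± 0.21 (adjusted p = 0.0260). Folr2, a folate receptor of resident macrophages, read 1.09, 0.37 and 1.17 at day 3 and -0.76, -0.85 and -0.47 at day 7 and fell by 1.57 ± 0.31 (adjusted p = 0.0385). Mrc1, the mannose receptor, read 0.70, 0.18 and 1.42 at day 3 and -0.60, -0.44 and -0.21 at day 7 and fell by 1.18 ± 0.25 (adjusted p = 0.0495). In each of these 3 genes the days did not overlap, and the largest day 3 value was in sample 4. Genes that did not pass include Ccl6, with 2.27, 1.49 and 3.45 at day 3 and 0.19, 0.03 and 0.26 at day 7 (difference -2.24 ± 0.48, adjusted p = 0.0512), and F13a1, the transglutaminase that cross-links fibrin, with a difference of -1.15 ± 0.25 (adjusted p = 0.0563). The exception in sign was Clec4a2, at 0.41 ± 0.41 (adjusted p = 0.692).

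The broader macrophage and monocyte list shares Mrc1 with the first. It gave 2 genes that fell out of 22 measured and none that rose, beside 0.23% of all features called lower. Its median difference was -1.20, and 19 genes had no overlap, all lower at day 7, beside 6.06% of all features. Pf4, a chemokine of platelets and macrophages, read 2.89, 2.55 and 3.48 at day 3 and 1.85, 2.01 and 1.94 at day 7 and fell by 1.04 ± 0.20 (adjusted p = 0.0326). The complement gene C1qa read 1.15, 0.32 and 2.27 at day 3 and -0.24, -0.25 and 0.01 at day 7 (difference -1.41 ± 0.33, adjusted p = 0.0728), and the defining marker Adgre1, which encodes F4/80, read -0.76, -0.91 and 0.77 at day 3 and -1.71, -1.54 and -1.70 at day 7 (difference -1.35 ± 0.36, adjusted p = 0.106). Csf1r, the receptor for the macrophage growth factor, read 3.81, 3.48 and 4.48 at day 3 and 3.08, 3.29 and 3.18 at day 7 (difference -0.74 ± 0.21, adjusted p = 0.126). Day 3 sample 4 was the highest in all 3 of these genes, while the 3 day 7 samples lay close together. Itgam differed by 0.00 ± 0.13, the smallest difference of the list. Adgre1, Csf1r and C1qa were well above background on all 6 arrays.

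The size of this difference moved with day 3 sample 4. The mean level of the 22 genes was 0.64, 0.32 and 2.09 at day 3 and -0.16, -0.10 and -0.19 at day 7, and that of the 17 resident macrophage genes was 0.35, -0.11 and 0.76 against -0.88, -0.91 and -0.91. Both means were higher in each day 3 sample than in each day 7 sample. Summed on the linear scale, the 22 genes overlapped between the days, at 93.8 to 204 against 90.7 to 94.4, and the 17 genes did not, at 32.4 to 60.7 against 17.8 to 24.0. Without day 3 sample 4 the median difference of the 22 genes was -0.69 with none called, and that of the 17 genes was -0.86 with 2 called. Leaving out the other samples in turn gave 0 to 8 calls of the 22 and 1 to 9 of the 17, with the most calls without day 3 sample 2. In a whole muscle, fewer cells of a type and less RNA per cell cannot be told apart.

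**Figure D3:**
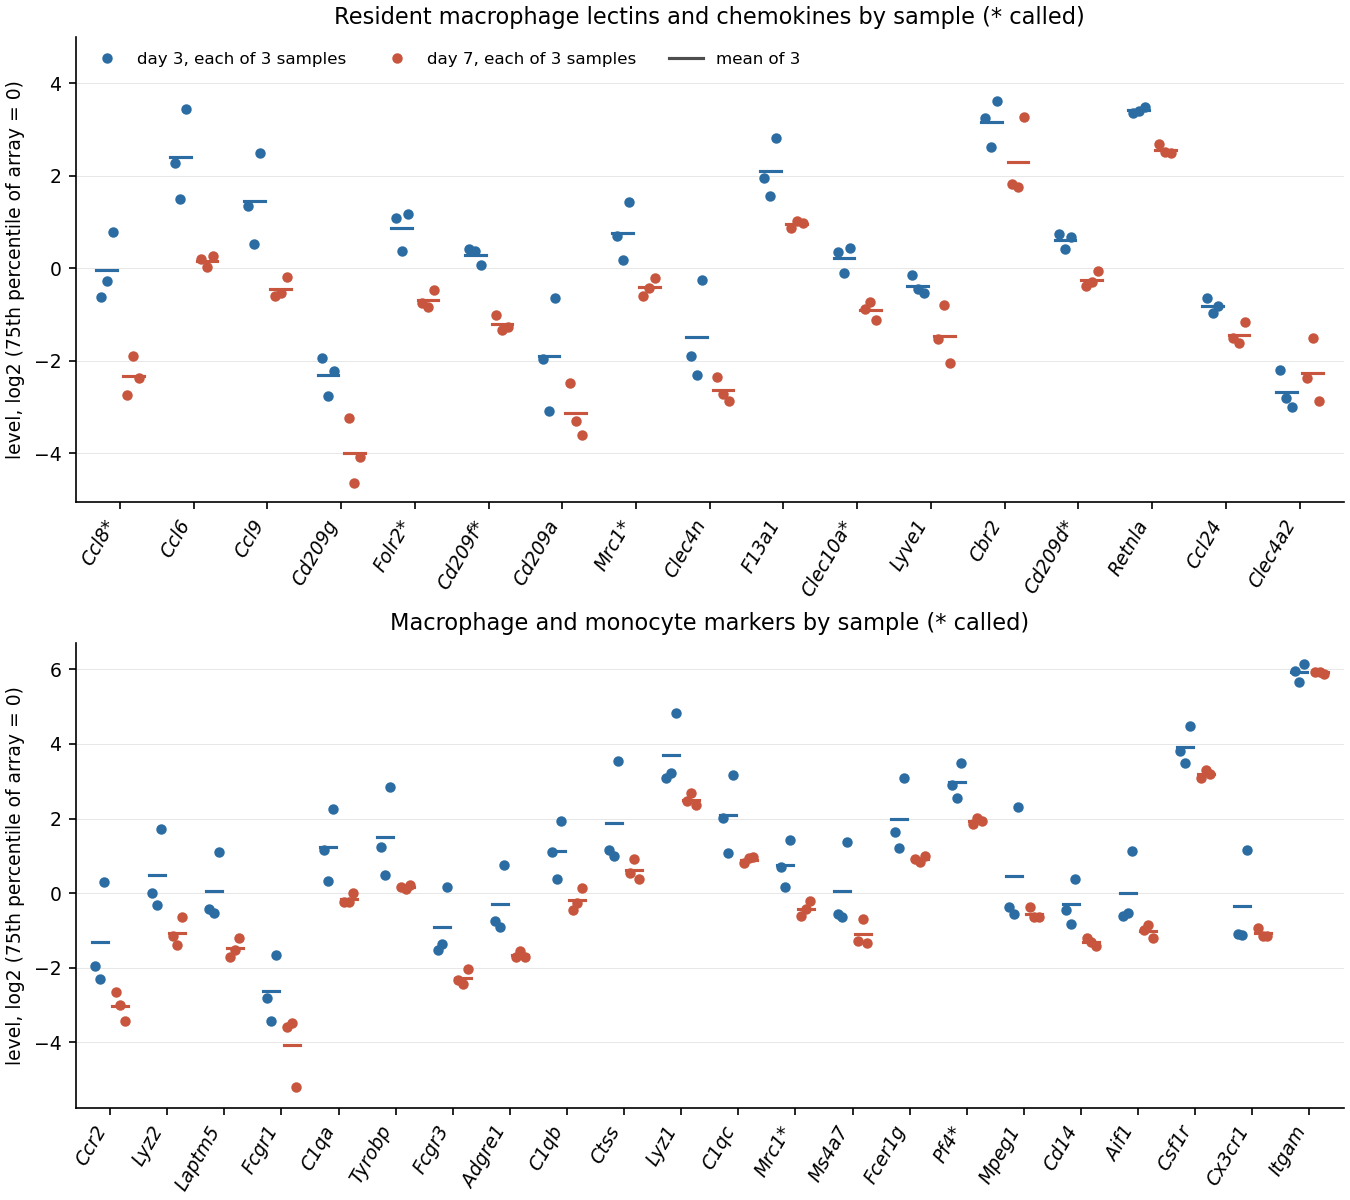
Levels (log2, vertical axis) of 17 resident macrophage genes (top) and 22 macrophage and monocyte markers (bottom) in each day 3 sample (blue) and day 7 sample (red), with the mean of each day as a line and stars on called genes. Most blue points lie above the red ones, and the highest blue point of many genes in the lower panel, which is day 3 sample 4, stands well above the other 2.

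Markers of neutrophils and lymphocytes gave no call. Of 8 measured neutrophil genes none passed: S100a9, a calcium-binding protein of neutrophils, read 0.17, 0.17 and -0.93 at day 3 and -1.46, -1.89 and -2.47 at day 7 (difference -1.75 ± 0.82, adjusted p = 0.339). S100a8 was well above background on 2 of 3 day 3 arrays and 1 of 3 day 7 arrays. Of 18 lymphocyte and antigen presentation genes none passed, with a median of -0.32, or -0.15 without day 3 sample 4. Among 30 interferon-stimulated genes 1 fell, beside 0.23% of all features called lower. It was Oas2, a sensor of double-stranded RNA, which read 0.94, 1.11 and 1.11 at day 3 and 0.40, 0.23 and 0.34 at day 7 (fall of 0.73 ± 0.14, adjusted p = 0.0370). C4b, a complement component outside these lists, read 3.46, 3.42 and 3.28 at day 3 and 1.77, 2.68 and 1.64 at day 7 and fell by 1.36 ± 0.22 (adjusted p = 0.0201).

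Matrix and matrix-degrading genes leaned lower at day 7. Mmp3, a metalloproteinase that cleaves matrix proteins, was well above background on all 3 day 3 arrays and on no day 7 array. Its levels were -2.69, -2.56 and -2.63 at day 3 and -5.19, -5.21 and -5.26 at day 7, which are close together within each day, and by the same bound as for Ciart it was at least 1.81-fold lower at day 7 (adjusted p = 0.00146). Those 3 day 3 arrays were the only ones of the 16 on which Mmp3 was well above background, so it passed the filter on dim probes only through the day where it is high. It was the only one of 14 inflammatory and matrix-degrading genes called. The monocyte chemokine genes Ccl7 and Ccl2 did not pass. Ccl7 read -1.45, -2.68 and -0.04 at day 3 and -5.27, -3.08 and -5.31 at day 7 (difference -3.16 ± 0.74, adjusted p = 0.0734). Ccl2 read -0.10, -0.69 and 1.51 at day 3 and -2.90, -0.84 and -2.23 at day 7 (difference -2.23 ± 0.59, adjusted p = 0.105). Ccl7 did not overlap between the days, and both were highest in day 3 sample 4 and, of the day 7 samples, highest in sample 2. Of 35 extracellular matrix and fibroblast genes 1 fell, Dpt, which encodes dermatopontin, a small protein that binds collagen fibrils. Dpt read 0.57, 0.47 and 0.72 at day 3 and -0.17, -0.19 and -0.20 at day 7 and fell by 0.77 ± 0.13 (adjusted p = 0.0202). The 1 call stands beside 0.23% of all features called lower. In this list 31 of 35 differences were negative and the median was -0.49. In 13 genes every day 7 value lay below every day 3 value, beside 6.06% of all features. Col3a1, a fibrillar collagen, read 5.61, 5.10 and 6.58 at day 3 and 4.46, 4.67 and 4.41 at day 7 (difference -1.25 ± 0.31, adjusted p = 0.0864), with its highest value again in day 3 sample 4. Without that sample the median of the list was -0.26 and no member was called; without day 3 sample 2 it was -0.59 with 6 called. Tendon and connective sheath genes gave no call among 15.

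Genes of fatty acid and sterol synthesis leaned lower at day 7. Of 27 measured members 2 fell and none rose, beside 0.23% of all features called lower. In this list 22 differences were negative, and the median was -0.42. Pnpla3, a lipid droplet protein induced with lipid synthesis, read -0.71, -1.0 and -1.46 at day 3 and -2.53, -3.57 and -3.82 at day 7 and fell by 2.25 ± 0.39, with 1 of 3 day 7 arrays well above background (adjusted p = 0.0206). Elovl6, which lengthens the products of fatty acid synthase, read -1.26, -1.13 and -0.78 at day 3 and -1.97, -2.20 and -2.61 at day 7 and fell by 1.20 ± 0.20 (adjusted p = 0.0202). For both genes the days did not overlap. Fatty acid synthase itself, Fasn, read -0.44, -1.01 and -1.39 at day 3 and -2.36, -2.59 and -2.99 at day 7, without overlap, and did not pass (difference -1.70 ± 0.42, adjusted p = 0.0869). The desaturase gene Scd1 read 4.10, 3.95 and 2.92 at day 3 and 1.64, 2.88 and 1.46 at day 7, without overlap (difference -1.66 ± 0.45, adjusted p = 0.108). In contrast, Acacb, the acetyl-CoA carboxylase at the mitochondrial surface, differed by 0.50 ± 0.15 and was not called either (adjusted p = 0.134).

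Scd1 and other genes of this group are also abundant in fat cells. None of 21 adipocyte markers was called. Their median was -0.31, or -0.65 without day 3 sample 4, and their mean level was 2.77, 2.78 and 2.04 at day 3 and 2.07, 2.57 and 1.91 at day 7. Adiponectin, Adipoq, read 3.43, 3.20 and 2.56 at day 3 and 1.85, 3.04 and 1.51 at day 7, so the days overlapped, and the perilipin gene Plin1 read 1.07, 0.97 and 0.22 at day 3 and 0.18, 1.0 and -0.54 at day 7. The part of fat cells in the fall of the lipid synthesis genes was not tested.

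Genes of fat burning leaned the other way. Of 20 PPAR and fasting-responsive fuel genes 1 rose, Slc25a34, a mitochondrial carrier, which read 4.04, 4.32 and 3.21 at day 3 and 5.20, 4.96 and 4.99 at day 7 (rise of 1.20 ± 0.23, adjusted p = 0.0318). The 1 call stands beside 0.447% of all features called higher. The median was 0.41, and 10 genes had no overlap, all with higher day 7 values, beside 11.2% of all features. Without day 3 sample 4 the median was 0.22 and no member was called. Pdk4, the kinase that shuts the pyruvate dehydrogenase complex when fat is burned, read 7.48, 7.75 and 6.63 at day 3 and 8.19, 8.41 and 8.27 at day 7 (difference 1.0 ± 0.32, adjusted p = 0.159). Ucp3, a mitochondrial uncoupling protein of muscle, read 1.23, 1.52 and 0.22 at day 3 and 2.36, 2.08 and 2.80 at day 7 (difference 1.43 ± 0.45, adjusted p = 0.161). Plin5, which ties lipid droplets to mitochondria, read 5.47, 5.42 and 4.34 at day 3 and 6.20, 6.26 and 6.20 at day 7 (difference 1.14 ± 0.27, adjusted p = 0.0787). In these 3 genes the days did not overlap and day 3 sample 4 was the lowest of all, but none of them passed.

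**Figure D4:**
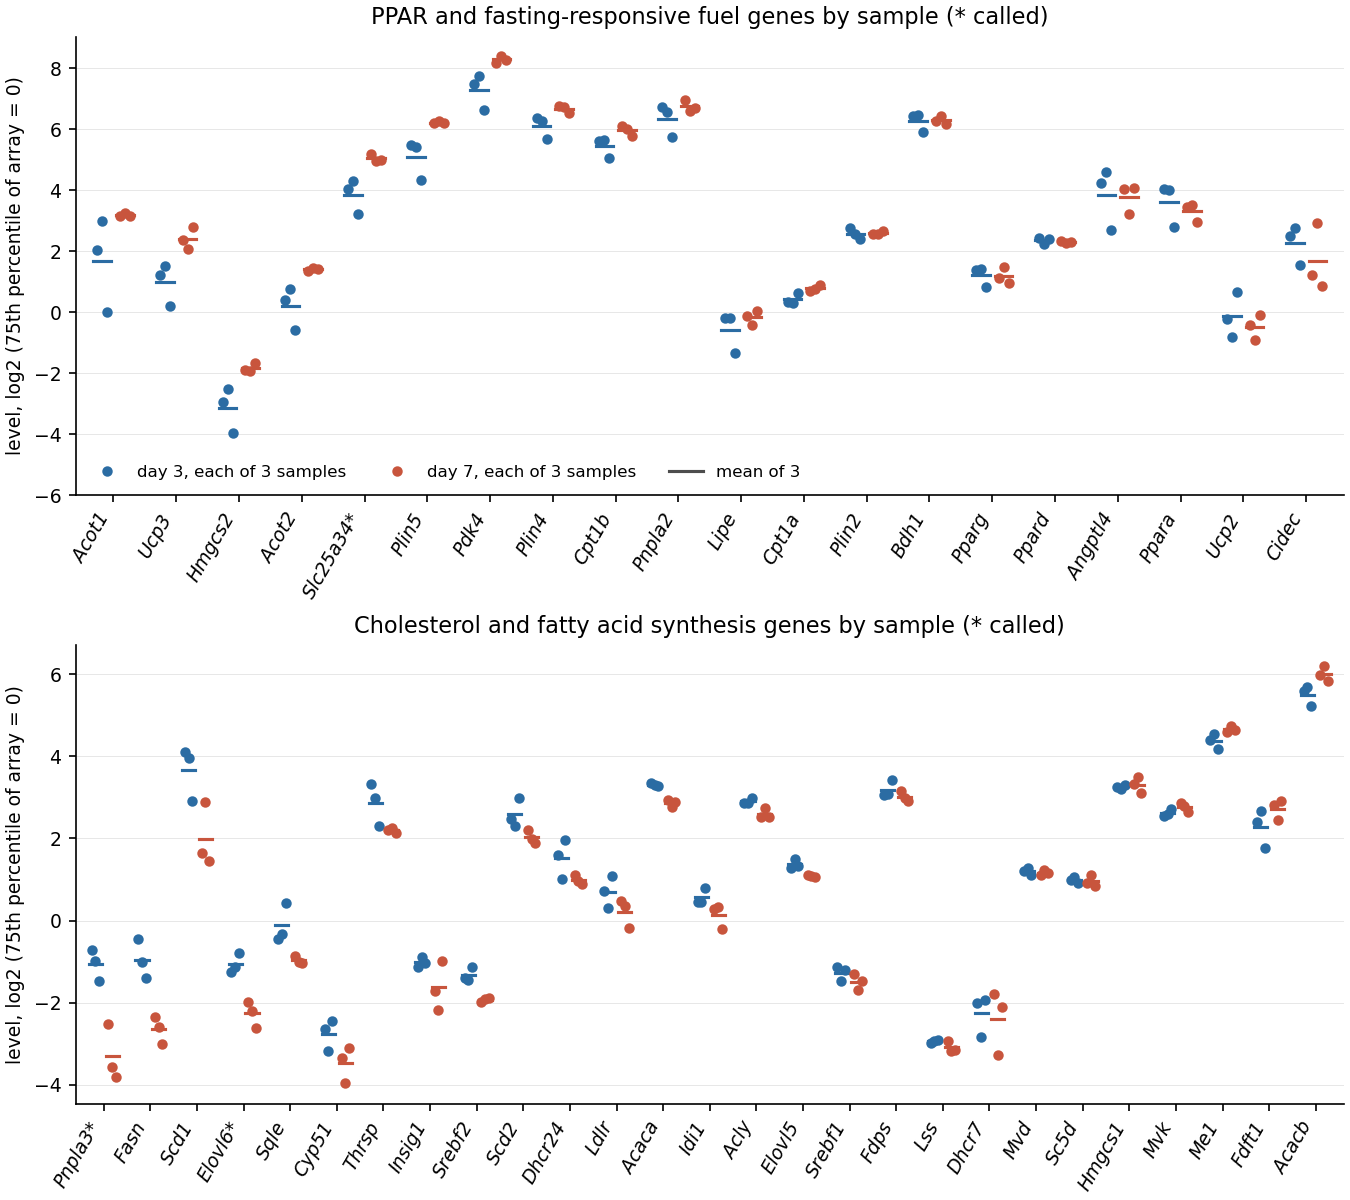
Levels (log2, vertical axis) of 20 PPAR and fasting-responsive fuel genes (top) and 27 cholesterol and fatty acid synthesis genes (bottom) in each day 3 sample (blue) and day 7 sample (red), with the mean of each day as a line and stars on called genes. In Pdk4, Ucp3 and Plin5 the red points lie above the blue ones without overlap, and in Pnpla3, Fasn, Scd1 and Elovl6 they lie below them.

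Genes of fatty acid oxidation and of the respiratory chain leaned higher at day 7, with none called. Of 34 fatty acid uptake and oxidation genes 31 had a positive difference, with a median of 0.39, and none was called. Acsl1, which activates fatty acids, read 6.55, 6.83 and 5.85 at day 3 and 7.14, 7.42 and 7.05 at day 7 (difference 0.79 ± 0.21, adjusted p = 0.101), and Mlycd, which removes malonyl-CoA, had the same difference and adjusted p. Of 37 respiratory complex I subunits 35 had a positive difference and of 42 subunits of complexes II to V 41 had, each with a median of 0.29 and no call. All day 7 values lay above all day 3 values in only 5 of the 37 and 3 of the 42, and in 9 of the 34 fatty acid genes. The share of all features was 11.2%. Ndufs6 had the smallest p of complex I, with 8.34, 8.32 and 8.12 at day 3 and 8.82, 8.80 and 8.49 at day 7 (difference 0.44 ± 0.11, adjusted p = 0.0857). Without day 3 sample 4 the medians were 0.14 for fatty acid oxidation, 0.15 for complex I and 0.12 for complexes II to V. Scaled to the probes detected on all arrays, the same 3 medians were 0.28, 0.18 and 0.18. The master regulator Ppargc1a read 3.34, 3.66 and 2.11 at day 3 and 2.69, 3.06 and 2.38 at day 7 and overlapped.

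Carbohydrate handling changed at single genes. Pdp1, the phosphatase subunit that switches pyruvate dehydrogenase on, read 2.27, 2.09 and 1.44 at day 3 and 3.46, 3.21 and 3.12 at day 7 and rose by 1.33 ± 0.17, a 2.51-fold change (adjusted p = 0.00435). All 3 day 7 values lay above all 3 day 3 values, of which sample 4 was the lowest, and Pdp1 was called in each of the 6 fits that left out a sample. It was the only member called among 29 citric acid cycle and pyruvate entry genes, of which 27 had a positive difference and whose median was 0.29, or 0.09 without day 3 sample 4. Tbc1d4, which holds glucose transporters inside the cell until insulin releases them, read 2.45, 2.36 and 1.67 at day 3 and 3.46, 3.54 and 2.98 at day 7 and rose by 1.16 ± 0.19 (adjusted p = 0.0202). Irs1, the adaptor next to the insulin receptor, read 3.82, 3.72 and 3.21 at day 3 and 2.78, 2.73 and 2.76 at day 7 and fell by 0.83 ± 0.16 (adjusted p = 0.0318). Its day 7 values were almost equal and lay below all day 3 values.

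Of 24 glycolysis genes 1 rose and 1 fell, beside 0.447% of all features called higher and 0.23% called lower. Their median was 0.11. Without day 3 sample 4 the median was 0.01 and none was called. Pfkfb1, a bifunctional enzyme that sets the main activator of phosphofructokinase, read 3.29, 3.22 and 2.45 at day 3 and 4.21, 4.03 and 4.08 at day 7 and rose by 1.11 ± 0.22 (adjusted p = 0.0385). Pfkp, the platelet type of phosphofructokinase, read -0.06, 0.07 and 0.36 at day 3 and -0.67, -0.53 and -0.60 at day 7 and fell by 0.72 ± 0.15 (adjusted p = 0.0445), but another probe of Pfkp differed by 0.90, so the direction of this gene depends on the probe. Lactate dehydrogenase Ldha and hexokinase Hk2 overlapped between the days, with 8.89, 9.01 and 8.65 at day 3 and 9.0, 9.25 and 8.98 at day 7 for Ldha and 5.45, 5.31 and 5.01 at day 3 and 5.37, 5.61 and 5.12 at day 7 for Hk2. Of 19 glycogen genes 1 fell, beside 0.23% of all features called lower. It was Ppp1r3c, which brings a phosphatase to glycogen and favours its synthesis. Ppp1r3c read 5.45, 5.55 and 5.0 at day 3 and 4.25, 4.10 and 4.21 at day 7 and fell by 1.14 ± 0.23 (adjusted p = 0.0432), and without overlap the starch-binding protein gene Stbd1 differed by -0.85 ± 0.20 and was not called (adjusted p = 0.0736).

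Heat shock genes were lower at 2 members. Hspa1a, the stress-induced HSP70, read 2.01, 1.58 and 1.46 at day 3 and 0.26, 0.10 and 0.50 at day 7 and fell by 1.40 ± 0.16, a 2.63-fold change (adjusted p = 0.00174). The days were well separated, and the gene was called in each of the 6 fits that left out a sample. Hspa1a and its near-identical neighbour Hspa1b cannot be told apart with certainty by a probe. Dnajb4, a co-chaperone of HSP70, read 1.82, 1.94 and 1.77 at day 3 and 0.91, 1.16 and 1.10 at day 7 and fell by 0.79 ± 0.12 (adjusted p = 0.00917). Hsp90aa1, the induced HSP90, did not pass at 4.01, 3.90 and 3.99 at day 3 and 3.11, 3.57 and 3.13 at day 7 (difference -0.69 ± 0.15, adjusted p = 0.0558). Of 27 measured members 2 fell and none rose, beside 0.23% of all features called lower. In this list 19 differences were negative, and the median was -0.17, or -0.09 without day 3 sample 4, with 2 still called. Hyou1, a chaperone of the endoplasmic reticulum outside this list, was well above background on 2 of 3 day 3 arrays and on no day 7 array, and was at least 1.74-fold lower at day 7 (adjusted p = 0.0270).

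Among hypoxia-inducible factor targets 19 of 29 measured genes had a positive difference. The median was 0.12, or 0.02 without day 3 sample 4 and 0.21 without day 3 sample 2, and that of all features was 0.05. Of the 29 targets 1 rose, beside 0.447% of all features called higher. That gene was Ankrd37, a direct target of the factors. It read -0.14, 0.15 and -0.06 at day 3 and 0.90, 1.11 and 0.67 at day 7, without overlap, and rose by 0.91 ± 0.12, a 1.88-fold change (adjusted p = 0.00571). It was called in each of the 6 fits that left out a sample. Pfkfb3, a hypoxia-induced relative of Pfkfb1, read 1.78, 1.64 and 2.02 at day 3 and 2.56, 2.42 and 3.22 at day 7 (difference 0.92 ± 0.31, adjusted p = 0.184), and Bnip3l, a mitophagy receptor, read 3.67, 3.75 and 3.41 at day 3 and 4.04, 3.97 and 3.95 at day 7 (difference 0.38 ± 0.10, adjusted p = 0.103), both without overlap and neither called. Vegfa, the vessel growth factor, read 4.99, 4.74 and 4.17 at day 3 and 4.43, 4.51 and 4.48 at day 7, so the days overlapped. Of 9 subunits and oxygen sensors none was called and all 9 differences were positive, between 0.01 and 0.27. Other probes differed by -0.09 and 0.03 for Epas1, -0.04 for Egln2 and -0.09 for Egln3, so the sign in these genes depends on the probe. Hif1a read -0.03, -0.13 and 0.29 at day 3 and 0.01, 0.26 and -0.09 at day 7, and Epas1, which encodes the HIF-2 alpha subunit, read 6.32, 6.63 and 5.88 at day 3 and 6.46, 6.74 and 6.44 at day 7. Egln3, an oxygen-sensing hydroxylase that is itself a target, read 3.12, 3.38 and 2.41 at day 3 and 2.75, 3.27 and 3.19 at day 7.

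The promoters of Ankrd37 and Hspa1a are shown as examples chosen by hand. Both genes were called in each of the 6 fits that left out a sample, as were other genes whose promoters are not shown. Ankrd37 was searched for the hypoxia response core ACGTG, which also lies within every E-box CACGTG. Hspa1a was searched for the heat shock element GAANNTTC or TTCNNGAA. Matches on either strand are in capitals. Both promoters are the 250 bases before the start on the minus strand from RefSeq (GRCm38.p6), at chr8:45999851-46000100 for Ankrd37 and chr17:34972157-34972406 for Hspa1a. The cores of Ankrd37 begin 241 and 6 bases before the start, and the element of Hspa1a 104 bases before it.
Ankrd37: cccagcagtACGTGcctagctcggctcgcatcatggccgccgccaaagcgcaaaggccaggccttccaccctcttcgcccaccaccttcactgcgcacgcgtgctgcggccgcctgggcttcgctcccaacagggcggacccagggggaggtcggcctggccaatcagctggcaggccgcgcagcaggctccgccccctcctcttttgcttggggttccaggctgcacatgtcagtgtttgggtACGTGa
Hspa1a: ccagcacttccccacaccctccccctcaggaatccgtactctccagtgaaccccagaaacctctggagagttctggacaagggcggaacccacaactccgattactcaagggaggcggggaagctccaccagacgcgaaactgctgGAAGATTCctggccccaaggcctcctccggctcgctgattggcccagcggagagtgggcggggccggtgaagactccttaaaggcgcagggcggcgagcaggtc
The core was in 23 of 39 windows of the hypoxia-inducible factor targets (59.0%), beside 19.6% of all windows, 7 of 11 windows of the clock output genes (63.6%), 28 of 88 windows of the called genes that rose (31.8%) and 12 of 33 of those that fell (36.4%). The heat shock element was in 14 of 31 windows of the heat shock genes (45.2%), beside 15.1% of all. Dnajb4, the other heat shock gene called, has 2 listed promoters, of which 1 holds the element.

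No gene of the contractile apparatus was called. None of 17 slow fibre genes and none of 18 fast fibre genes was called, with medians of 0.00 and 0.09. Slow myosin Myh7 read 10.56, 10.51 and 10.22 at day 3 and 10.52, 10.62 and 10.35 at day 7, and Myh2, the myosin of fast oxidative fibres, read 10.35, 10.43 and 9.89 at day 3 and 10.32, 10.41 and 10.26 at day 7. Both overlapped between the days. Myh4, the myosin of the fastest fibres, read 9.27, 9.60 and 9.29 at day 3 and 9.44, 4.31 and 9.83 at day 7, so that day 7 sample 2 lay far below the other 5. At day 0 it read 5.27 and 2.81. Myh1, the myosin of the next fastest fibres, read 8.40, 8.31 and 8.25 at day 3 and 8.89, 9.30 and 8.70 at day 7, with that sample the highest. The fast actinin gene Actn3 was also lowest in that sample, with 5.54, 5.34 and 6.08 at day 3 and 5.05, 3.71 and 6.39 at day 7. Without that sample the fast fibre median was 0.20, still with none called. Of 17 Z-disc and stretch-responsive genes none was called. Ankrd2, a stretch-responsive protein of slow fibres, read 8.23, 7.83 and 8.26 at day 3 and 7.69, 7.62 and 7.60 at day 7, without overlap (difference -0.47 ± 0.14, adjusted p = 0.143).

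**Figure D5:**
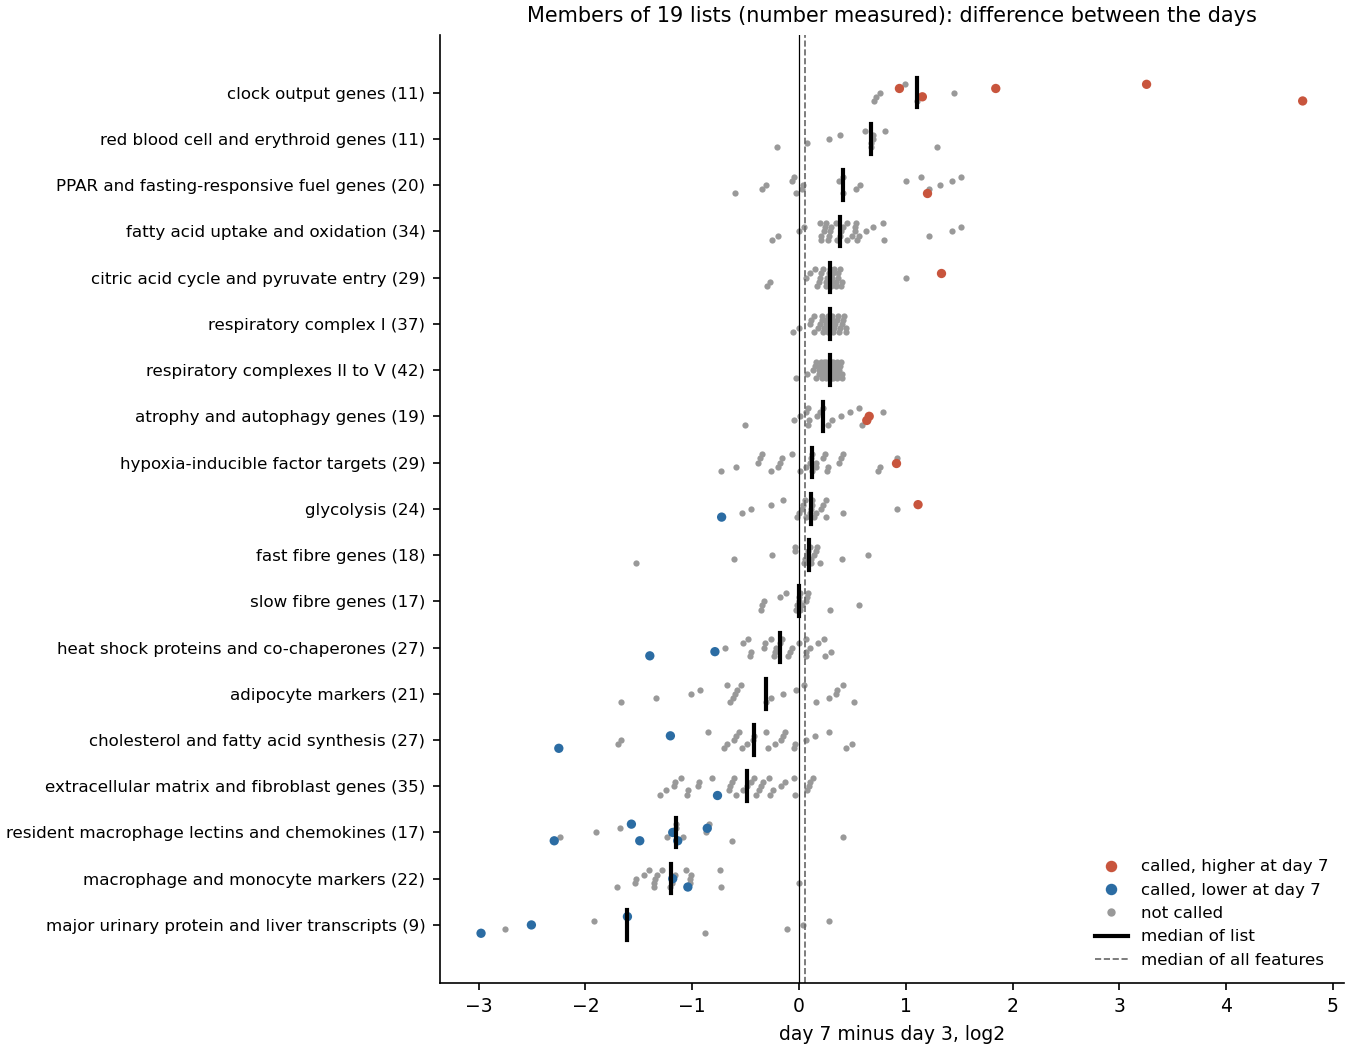
Difference between day 7 and day 3 (log2, horizontal axis) of every measured member of 19 lists (rows, with the number measured), with called members in red or blue, other members in grey, the list median as a black bar and the median of all features (0.05) as a dashed line. The clock output genes lie furthest to the right, with a median of 1.10, and the macrophage lists and major urinary proteins to the left.

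Regulators of muscle mass gave few calls. Of 19 atrophy and autophagy genes 2 rose and none fell, beside 0.447% of all features called higher. In this list 17 differences were positive, with a median of 0.22. Ulk1, the kinase that starts autophagy, read 4.31, 4.41 and 3.96 at day 3 and 5.04, 4.93 and 4.70 at day 7 and rose by 0.66 ± 0.13 (adjusted p = 0.0385). Fbxo21, an F-box protein of a ubiquitin ligase, read 1.80, 1.74 and 1.76 at day 3 and 2.41, 2.54 and 2.25 at day 7 and rose by 0.63 ± 0.10 (adjusted p = 0.0153). Both were without overlap. The atrophy ligases Fbxo32 and Trim63 did not pass, with 3.07, 3.62 and 3.34 at day 3 and 4.16, 4.02 and 3.63 at day 7 for Fbxo32 and 5.06, 5.23 and 4.73 at day 3 and 5.10, 5.30 and 4.89 at day 7 for Trim63. Irs1, described above, was the only gene called among 14 of the insulin-like growth factor system. Rcan1, an inhibitor of calcineurin that calcineurin signalling induces, read 4.84, 4.58 and 4.69 at day 3 and 3.67, 3.74 and 4.02 at day 7 and fell by 0.89 ± 0.16 (adjusted p = 0.0235), the only call among 20 genes of the calcineurin, Mef2 and PGC-1 group. Stat5a and Stat5b, which carry growth hormone and cytokine signals, both rose, by 0.74 ± 0.13 (adjusted p = 0.0253) and 0.76 ± 0.15 (adjusted p = 0.0329). Stat5a read 1.33, 1.33 and 1.30 at day 3 and 2.08, 2.03 and 2.08 at day 7, with almost equal values within each day.

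Transcripts of major urinary proteins, pheromone carriers made mainly by liver, gave 3 falls. Of 9 measured genes of the list of these and other liver transcripts 3 fell and none rose, beside 0.23% of all features called lower. The list median was -1.61. Mup1 was well above background on all 3 day 3 arrays and on no day 7 array, with levels of -0.13, -1.65 and -2.35 at day 3 and -3.69, -4.14 and -5.23 at day 7, and was at least 4.31-fold lower at day 7 (adjusted p = 0.0202). Mup18 read 0.29, -1.33 and -1.37 at day 3 and -2.70, -3.54 and -3.69 at day 7 and Mup19 read 0.78, -0.58 and -0.68 at day 3 and -1.54, -1.72 and -2.04 at day 7 (adjusted p = 0.0459 and 0.0495). In all 3 genes day 3 sample 1 was the highest by more than a log2 unit. Without that sample the median of the list was -0.97, none was called and the bound of Mup1 was 2.80-fold. These genes are near-identical copies, so a probe may read several of them, and the 3 calls are not separate evidence. The liver genes Apoa2 and Serpina1a differed by 0.28 ± 0.13 and 0.04 ± 0.38 and were not called.

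Blood and vessel genes gave 1 call. None of 11 red blood cell genes passed, though 10 differences were positive and the median was 0.67. The globin gene Hbb-bt read 5.91, 5.45 and 5.06 at day 3 and 6.26, 6.32 and 5.92 at day 7 (difference 0.69 ± 0.27, adjusted p = 0.255), with the days not overlapping, and Hba-a1 read 7.05, 6.20 and 6.16 at day 3 and 7.37, 7.04 and 6.85 at day 7, with an overlap. How much blood each muscle held is not given in the sources used here. Of 24 endothelial genes 1 fell, beside 0.23% of all features called lower. It was Tmem100, a membrane protein of endothelium, which read -0.92, -0.91 and -0.47 at day 3 and -1.53, -1.62 and -1.27 at day 7 (fall of 0.71 ± 0.14, adjusted p = 0.0447). The vessel regulator Angpt1 read 1.51, 2.02 and 1.12 at day 3 and 2.35, 2.50 and 2.03 at day 7, without overlap, and did not pass (difference 0.75 ± 0.19, adjusted p = 0.0975). None of 22 angiogenic genes and none of 15 pericyte and smooth muscle genes was called.

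Other large rises fell outside the lists. Coq10b, a mitochondrial protein that binds coenzyme Q, read -0.31, -0.51 and -0.28 at day 3 and 0.74, 1.81 and 1.08 at day 7 and rose by 1.58 ± 0.31 (adjusted p = 0.0370), with day 7 sample 2 the highest. Amigo3, a cell adhesion protein, read -0.75, -0.55 and -0.93 at day 3 and 0.78, 0.55 and 0.59 at day 7 and rose by 1.38 ± 0.15 (adjusted p = 0.00158). The glutathione transferase gene Gstt2 read -0.86, -0.92 and -1.44 at day 3 and 0.46, 0.01 and 0.09 at day 7 and rose by 1.26 ± 0.17 (adjusted p = 0.00568). Each of these genes had no overlap, and Amigo3 and Gstt2 were called in each of the 6 fits that left out a sample. Gpam, the mitochondrial acyltransferase that starts glycerolipid synthesis, read -0.62, -0.44 and -0.87 at day 3 and 0.45, 0.42 and 0.46 at day 7 and rose by 1.09 ± 0.14 (adjusted p = 0.00435), opposite in sign to the fatty acid synthesis genes. Stard3, which binds cholesterol in endosomes, read 2.19, 2.21 and 2.19 at day 3 and 3.08, 2.94 and 2.98 at day 7 and rose by 0.80 ± 0.09 (adjusted p = 0.00146). Cirbp, the cold-induced RNA-binding protein, read 3.66, 3.58 and 3.56 at day 3 and 4.47, 4.21 and 4.17 at day 7 and rose by 0.68 ± 0.10 (adjusted p = 0.00810). Each of the last 3 was also called in all 6 of those fits.

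Nceh1, which frees cholesterol from its esters, read 3.98, 4.11 and 3.59 at day 3 and 4.73, 4.94 and 4.69 at day 7 and rose by 0.89 ± 0.15 (adjusted p = 0.0202). The linker histone gene H1f2 read 4.58, 4.38 and 4.58 at day 3 and 5.47, 5.44 and 5.24 at day 7 and rose by 0.87 ± 0.12 (adjusted p = 0.00609). Lgals4, a galectin that binds beta-galactosides, read 2.59, 2.74 and 2.26 at day 3 and 3.41, 3.75 and 3.46 at day 7 and rose by 1.01 ± 0.15 (adjusted p = 0.00959), and the zinc finger gene Zc3h6 read 0.92, 0.92 and 0.84 at day 3 and 2.28, 2.17 and 1.83 at day 7 and rose by 1.20 ± 0.16 (adjusted p = 0.00492). None of these 4 genes overlapped between the days. Smaller rises included the DNA mismatch repair gene Msh3, at 0.62 ± 0.10 (adjusted p = 0.0195), although another probe of Msh3 differed by -0.33. The ADP-ribosyltransferase genes Art1 and Art5, expressed in muscle, rose by 0.53 ± 0.09 and 0.70 ± 0.13 (adjusted p = 0.0195 and 0.0326). Clpx, part of a mitochondrial protease, and Ppcs, an enzyme of coenzyme A synthesis, rose by 0.70 ± 0.14 and 0.63 ± 0.12 (adjusted p = 0.0445 and 0.0300).

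Among other falls, Sox9, a transcription factor of cartilage and connective tissue cells, read 0.49, 0.43 and 0.05 at day 3 and -0.88, -0.89 and -1.02 at day 7. Its days were far apart, and it fell by 1.26 ± 0.13 (adjusted p = 0.00146) and was called in each of the 6 fits that left out a sample. Spsb4, an adaptor of a ubiquitin ligase, read 1.57, 1.61 and 1.66 at day 3 and 0.43, 0.38 and 0.72 at day 7 and fell by 1.10 ± 0.12 (adjusted p = 0.00158), and was likewise called in all 6. Cdo1, the enzyme that oxidises cysteine, read 0.49, -0.21 and -0.14 at day 3 and -1.28, -1.14 and -1.83 at day 7 and fell by 1.46 ± 0.30 (adjusted p = 0.0491). G6pdx, the entry enzyme of the pentose phosphate pathway, read 0.98, 0.68 and 1.37 at day 3 and 0.23, 0.27 and 0.21 at day 7 and fell by 0.77 ± 0.15 (adjusted p = 0.0373), the only call among 27 antioxidant genes. Tmem171 and Srarp fell by 1.49 ± 0.24 and 1.43 ± 0.30 (adjusted p = 0.0173 and 0.0494).

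Of the 48 lists, 20 held at least 1 called member and 28 held none. The lists without a call include cytosolic ribosomal proteins (75 measured, median 0.12), mitochondrial ribosomal proteins (51, 0.17), proteasome subunits (31, 0.11) and satellite cell and myogenic genes (22, -0.18, or 0.09 without day 3 sample 4). They also include cell cycle genes (22, -0.29, or -0.11 without day 3 sample 4), where the proliferation marker Mki67 read -2.03, -1.86 and 1.02 at day 3 and -3.41, -2.15 and -2.56 at day 7, so that day 3 sample 4 stood far above the other 5.

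The lists of ATF4 stress genes, immediate-early genes, iron and haem genes, and myoglobin and carbonic anhydrases gave no call. Atf3, a stress-induced transcription factor, read 1.89, 1.52 and 1.96 at day 3 and -0.58, 1.11 and 0.79 at day 7, without overlap (difference -1.35 ± 0.33, adjusted p = 0.0819). Myc, a growth-promoting transcription factor, read -1.15, -1.63 and -1.03 at day 3 and -2.14, -2.11 and -1.97 at day 7, also without overlap (difference -0.81 ± 0.19, adjusted p = 0.0780). In both genes every day 7 value was the lower, and neither passed. The transferrin receptor gene Tfrc, which takes up iron, read 2.58, 2.34 and 1.90 at day 3 and 1.65, 1.45 and 1.96 at day 7, and the metallothionein gene Mt2 read 4.93, 3.99 and 5.93 at day 3 and 3.02, 4.31 and 2.75 at day 7, each with an overlap. Myoglobin, Mb, which stores oxygen in muscle, read 10.60, 10.31 and 10.06 at day 3 and 10.34, 10.33 and 10.22 at day 7, and the muscle carbonic anhydrase Car3 read 8.14, 8.10 and 7.85 at day 3 and 8.46, 8.28 and 8.42 at day 7. Myoglobin overlapped between the days and Car3 did not (difference 0.36 ± 0.14, adjusted p = 0.240). Fkbp5, which glucocorticoids induce, overlapped at 2.32, 1.83 and 1.57 at day 3 and 2.11, 2.24 and 1.18 at day 7.

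The 2 day 0 samples of the same slide show where the called genes stood before hypoxia; they are a description with no test. Of the 99 features called higher, both day 0 values lay below all day 7 values in 91, and above all day 3 values in 26. Of the 51 called lower, both lay above all day 7 values in 37, and below all day 3 values in 27. These features were called because the days lie apart, which by itself favours such counts, and the matching shares over all features were not computed. Over all features the day 0 mean lay beyond the day 3 mean in 52.8% and beyond the day 7 mean in 28.5%. Among the 99 called higher it did so in 44 and 1, and among the 51 called lower in 8 and 3. Among the clock genes Dbp read 4.69 and 5.93 at day 0, between the day 3 and day 7 values, and Per3 read -1.94 and -1.14, also between them. Pdp1 read 1.88 and 1.81 at day 0, within its day 3 range and below every day 7 value. Ankrd37 read 0.26 and 0.31 at day 0, above every day 3 value and below every day 7 value. Hspa1a, at 1.97 and 2.27, and Rcan1, at 4.75 and 4.87, stood at day 0 above all day 7 values. The lectin genes Cd209f and Clec10a read -1.49 and -1.05 and -0.95 and -1.35 at day 0, below all their day 3 values, whereas Folr2 read 0.80 and 0.58, within its day 3 range. Sox9 read -0.70 and -0.52 and Elovl6 read -1.72 and -1.65 at day 0, in both genes below all day 3 values and above all day 7 values.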

How the data were processed

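Total RNA of mouse soleus, 100 ng a sample, was amplified, labelled with Cy3 and hybridised to 1-colour Agilent arrays, per the labels' protocols. The deposited scanner tables hold spot intensities from Agilent Feature Extraction 11.0.1.1, per the file headers: background-corrected intensity for the main analysis, and spot and background medians for normexp. The deposited series table holds linear intensity whose steps are not given in the sources used here; it was used as an alternative only. It followed median spot brightness (Spearman 0.988 to 0.997 across spots) more closely than background-corrected intensity (0.928 to 0.982), and its column medians were 45.1 to 46.4.

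Here log2 of the deposited intensity was taken relative to each array's 75th percentile, outlier spots were left out, and spots were averaged per probe. Of 55681 probes 27656 (49.7%) were named through RefSeq transcripts (GRCm38.p6 table). The array design uses another build, so no probe coordinates are given. A probe was kept if well above background on 3 or more of the 16 arrays, and the brightest probe stood for each gene, which left 22145 features. limma 3.58.1 (R 4.3.3, statmod 1.5.0) fitted day and slide over 16 arrays with the RNA sample as a random block (correlation 0.448), since 2 RNA samples of day 0 were hybridised on both slides. The slide term cancels in this comparison. Scripts were checked on simulated data. Tables were handled in pandas 2.3.3 (NumPy 2.4.6) and figures in Matplotlib 3.10.9, under Python 3.11.15.

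A planned normexp on mean spot brightness used the median, since the tables hold no mean. On the 6 arrays the 75th percentile intensity was 203 to 264. The number of arrays limits the precision.

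The comparison and gene lists were chosen with earlier results of these data known. Genes were selected from sets drawn by rule: the 15 largest rises and the 15 largest falls, the 10 smallest p, up to 4 called members of each list and direction (the 2 smallest p where none was called), and a set of core genes. Not every member is described. Those left out include 4930506C21Rik, Fbxw10 and Slc43a1 of the largest rises, and the features without a gene symbol among the 10 smallest p. Other genes were chosen after their values were seen: Acacb, Acsl1, Acta1, Actn3, Adgre1, Adipoq, Apoa2, Art1, Art5, Bhlhe40, Bhlhe41, Bnip3l, C1qa, Ccl2, Ccl6, Ccl7, Cirbp, Clec4a2, Clock, Clpx, Col3a1, Csf1r, F13a1, Fasn, Fmod, Gpam, H1f2, Hlf, Hsp90aa1, Hyou1, Itgam, Krt14, Lep, Lgals4, Msh3, Nceh1, Per1, Plin1, Plin5, Ppcs, Rora, Scx, Serpina1a, Stat5a, Stat5b, Stbd1, Tnmd, Tnnt1 and Ucp3.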

Additional observations from a re-analysis of the deposited data

How the results depend on the processing

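With limma in every case, the number of called features moved with the arrays that set the spread and with the processing. It was 2 on the 6 arrays alone and 0 on the 8 arrays of the slide, where 2627 had an unadjusted p under 0.05, against 150. Leaving out 1 RNA sample at a time gave 28 to 268 calls. Normexp background correction gave 730, median scaling 56, no filter on dim probes 44, the filter on all 6 arrays 226, and a trended robust spread 392. Quantile normalization gave 100, the mean of the probes of a gene 123 and the values of the deposited series table gave 185. Of the 53 named genes called, 53 were also called under normexp, 30 under median scaling, 24 without a filter and 2 on the 6 arrays alone. The sole reversal was Pfkp, at 0.0854 (adjusted p = 0.911 by limma) with the mean of its probes, because its other probe has the opposite sign.

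Deviations from the day means had correlations of 0.132, -0.101 and -0.0366 between same-numbered samples, and -0.118 to 0.117 between differently numbered ones. With 3 samples a day these cannot tell whether the numbers mark pairs, and the sources used here do not say. The main fit treats the samples as unpaired. With the replicate block 44 features were called over 16 arrays, 41 of them among the 150, and 0 over the 6 arrays alone, where 2470 had an unadjusted p under 0.05. No sample was left out for its values. With 3 samples a day no test for a sample that stands apart was run, and signals near background limit the levels of 7 called features.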
